A study of Mus musculus with 16 samples.

Results

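The 35 genes described here carry out or signal homologous recombination and interstrand crosslink repair, and single-strand break signal was read at each of them in mouse embryonic stem cells. They were chosen by function from 21938 protein-coding genes of chromosomes 1 to 19, X and Y in GENCODE M21, on the mm10 build. A peak counted for a gene when it shared at least 1 bp with the gene body or the 5 kb on either side. The break signal came from SSB-seq, in which a brief nick translation with E. coli DNA polymerase I adds a labelled nucleotide at free 3′ ends, so that fragments near a nick can be immunoprecipitated (IP) and sequenced beside input DNA. All cells were of strain C57BL/6JRj and were grown in 2i medium with LIF. The 4 conditions were Tdg knockout (KO) cells given 5 nM talazoparib for 24 h, KO cells given DMSO, wild-type (WT) cells given talazoparib in the same way, and WT cells given DMSO. TDG is a glycosylase that removes thymine from G:T mismatches and oxidised methylcytosine from DNA, and talazoparib inhibits poly(ADP-ribose) polymerases. The knockout rests on excision of a Tdg minigene by 4-OHT, and the labels do not say whether WT cells also received 4-OHT or whether the cells are 1 clone.

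Homologous recombination repairs double-strand breaks and collapsed replication forks by copying the sister chromatid. Nucleases first trim the broken end, the BRCA1, PALB2 and BRCA2 proteins and further factors then set up the strand exchange with the sister, and helicases and nucleases take the joint molecules apart. The Fanconi anaemia proteins recognise interstrand crosslinks through a core ubiquitin ligase that modifies FANCD2 and FANCI, and hand the lesion on to the same recombination machinery. Cells that lack many of these genes are sensitive to inhibitors of poly(ADP-ribose) polymerases such as talazoparib. The measurements below are of breaks at the genes, not of the activity of their products.

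Each condition had 3 IP libraries and 1 input library, which the authors pooled into 1 list of peaks. A list has no spread between replicates, so no difference below has a test, and intervals cover counting error only. The lists held 23983 peaks in KO talazoparib, 35459 in KO DMSO, 15544 in WT talazoparib and 28559 in WT DMSO, from 66.4, 69.2, 83.8 and 87.0 M IP tags and 28.3, 24.8, 24.5 and 38.1 M input tags, in that order of conditions. Peaks resting on fewer than 3 input tags made up 30%, 46.5%, 60.6% and 30.9% of these lists. KO and WT libraries were sequenced on different flow cells per the labels, so genotype and flow cell cannot be told apart. The absence of a peak means only that none passed the authors' threshold. Every listed peak had at least 4 times its input tags, after IP tags were scaled to the input total. Peak lists hold no expression, so the cell type was not checked against marker genes.

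Break peaks lay at nearly all of these repair genes. A peak inside this window was listed for 31 of 35 members in KO talazoparib cells, against 58.9% of all protein-coding genes. In KO DMSO cells all 35 members had one, against 66.8% of genes. The count was 27 members in WT talazoparib cells and 31 in WT DMSO cells, against 48.8% and 60.9% of genes. A peak in every list was found at 21 members (39.0% of genes), and no member was without a peak in all 4 lists, while 5735 protein-coding genes were. The genes that lacked one in KO talazoparib were Rad52, Chek1, Rad50 and Exo1. In WT talazoparib, 8 members lacked one (Rad51c, Rad52, Rad54l, Chek2, Fanca, Fancf, Fancl and Wrn), and in WT DMSO the 4 without were Brca2, Palb2, Xrcc2 and Fancl.

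Most members had a peak at the gene start. A peak within 1 kb of the annotated 5′ end, called a start peak here, was listed for 27 members in KO talazoparib, 32 in KO DMSO, 20 in WT talazoparib and 29 in WT DMSO. Over all protein-coding genes the shares were 41.4%, 51.3%, 32.6% and 42.4% in the same order. The 11 members with a start peak in all 4 lists (21.6% of genes) were Atm, Bard1, Brca1, Brip1, Dna2, Fance, Fancm, Mre11a, Nbn, Slx4 and Xrcc3. The centre of the start peak had a median position of 10.5 bp into the gene in KO talazoparib, 17.8 bp in KO DMSO, 46.5 bp in WT talazoparib and 71 bp in WT DMSO. Over all protein-coding genes the medians were 38, 68, 71 and 53 bp in the same order. The peak nearest to the start was taken for each gene, so centres close to the start follow in part from this rule. Most start peaks were weakly above input: the median of the authors' fold was 5.03, 5.80, 5.23 and 4.91 in these lists. With a fold of at least 6 required, start peaks remained at 8 members (22.9%) in KO talazoparib and 16 (45.7%) in KO DMSO, against 12.6% and 28.4% of all protein-coding genes. At that fold the share in WT talazoparib was 4 members (11.4%) against 14.5% of genes, and in WT DMSO 4 members (11.4%) against 13% of genes.

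**Figure D1:**
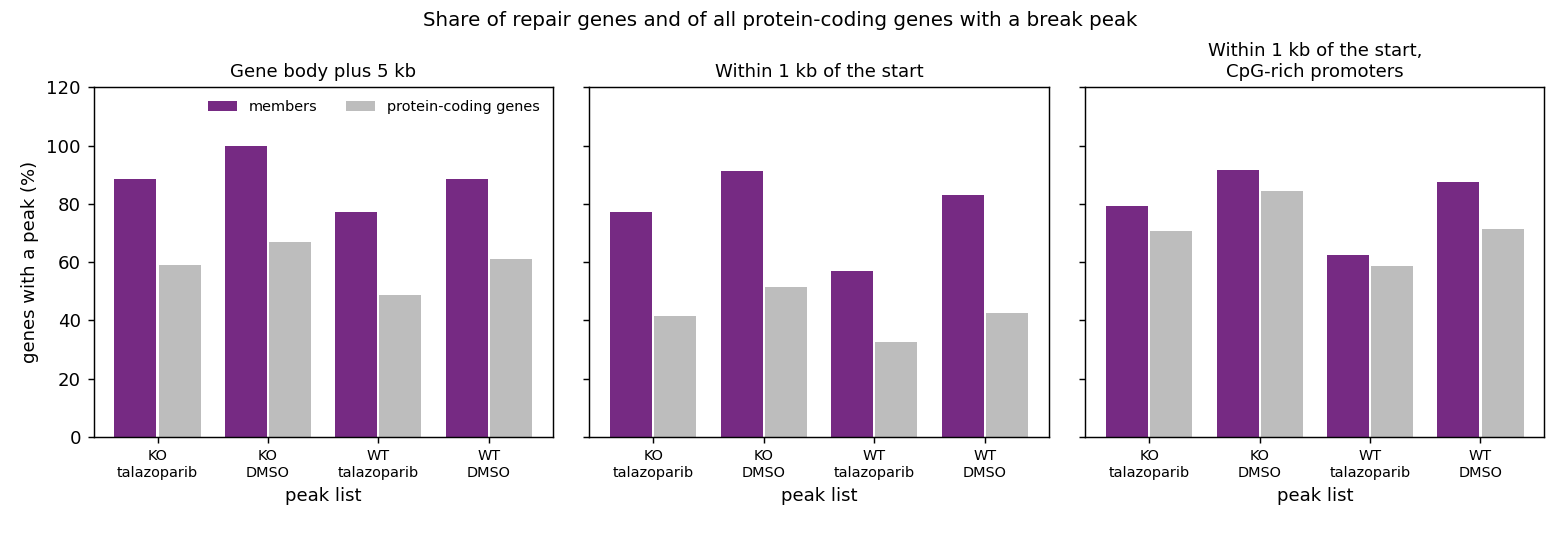
Percent of genes with a break peak in each of the 4 lists (x axis), for the repair genes (purple) and all protein-coding genes (grey), with no error bars because each condition has 1 list. Panels show the gene body plus 5 kb (35 members), the 1 kb around the start (35 members), and the 1 kb around the start among CpG-rich promoters (24 members); the purple bar is the higher one throughout, by the least in the CpG-rich panel, where it stands at 62.5% against 58.6% in WT talazoparib.

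Promoter type and gene length differ between these genes and the rest. A promoter of 300 bases, from 250 before to 50 after the start, was called CpG-rich when its GC content was at least 50% and its CpG count at least 0.6 of that expected from its base composition. By this rule 24 of 35 members had a CpG-rich promoter, against 41.3% of protein-coding genes. Among the 24, start peaks were listed for 19 in KO talazoparib, 22 in KO DMSO, 15 in WT talazoparib and 21 in WT DMSO. CpG-rich promoters of all genes had one in 70.6%, 84.4%, 58.6% and 71.3% of cases, so the gap was smaller within this class. The other 11 members had start peaks in 8, 10, 5 and 8 cases in the same order, against 20.9%, 27.9%, 14.4% and 22.1% of all genes with such promoters. Members were also long, with a median of 47.7 kb against 17.4 kb over protein-coding genes. Members under 20 kb had a peak in the gene body plus 5 kb in 7, 8, 7 and 7 of 8 cases in KO talazoparib, KO DMSO, WT talazoparib and WT DMSO, against 49.2%, 56.9%, 39% and 51.2% of genes of that length. Those of 20 to 60 kb had one in 12, 15, 10 and 13 of 15 cases, against 68%, 76.1%, 58% and 70.4%. Those of 60 kb or more had one in 12, 12, 10 and 11 of 12 cases, against 73.2%, 81.1%, 63.5% and 74.9%.

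**Figure D2:**
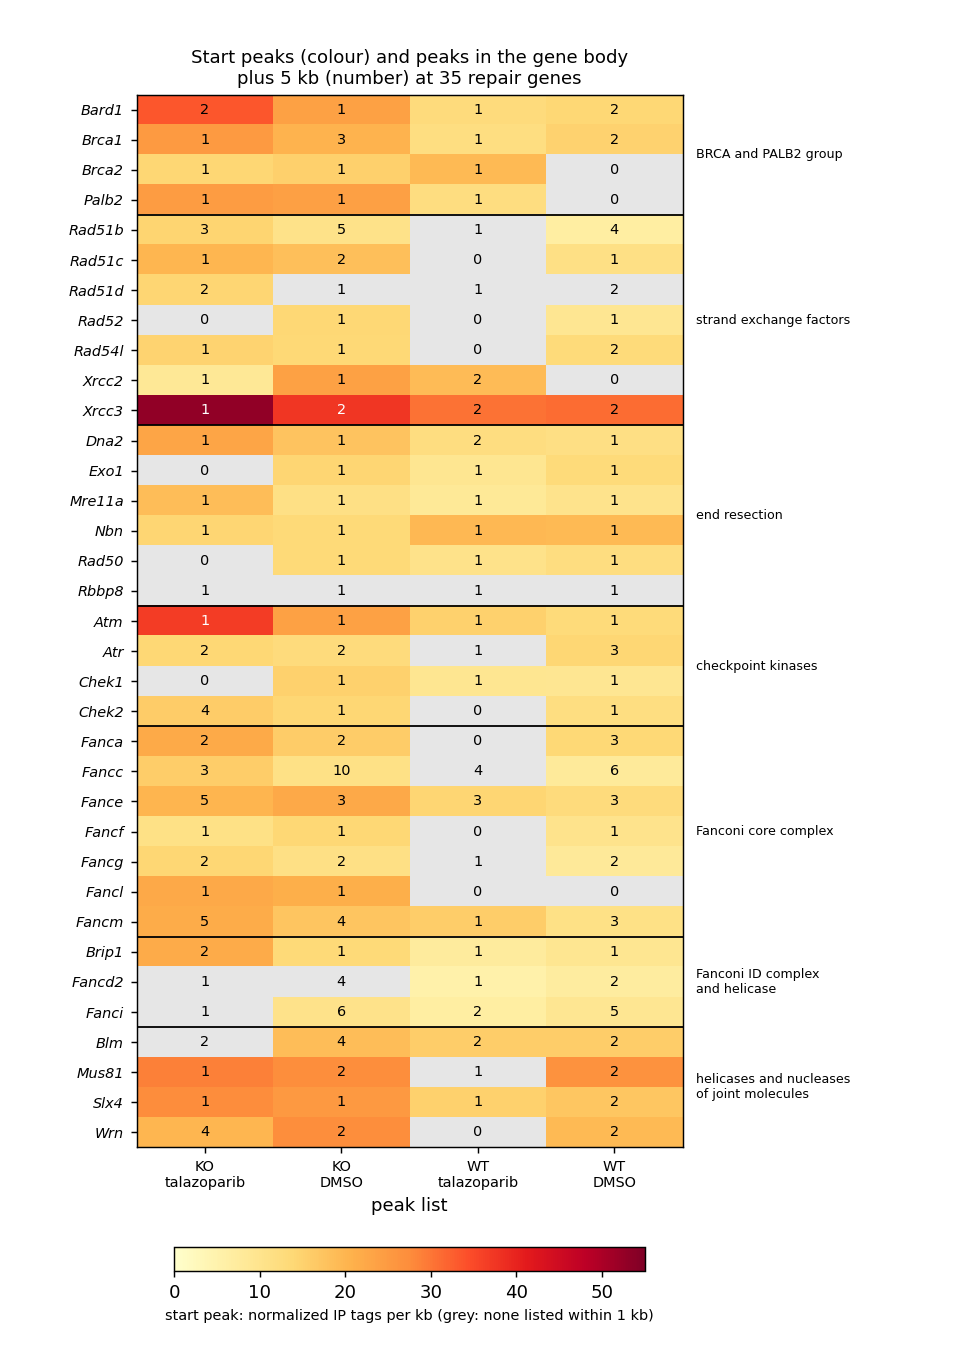
The 35 genes by role (rows) in the 4 peak lists (columns). Colour gives the density of the start peak in normalized IP tags per kb, grey marks the absence of a peak within 1 kb of the start, and the number counts the peaks in the gene body plus 5 kb; Xrcc3 has the darkest row, at 52.9 tags per kb in KO talazoparib, and Fancc the most peaks, with 10 in KO DMSO.

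Peak strength is given below as the authors' normalized tag count, in IP tags per 10000000, and as density, the same count per kb of peak, because the borders of a peak differ between lists. A longer peak holds more tags at the same density, so tag counts alone do not give the order of lists per kb. Values are in the order KO talazoparib, KO DMSO, WT talazoparib, WT DMSO unless a sentence names the conditions. Some starts lie within 1 kb of a start on the opposite strand, so breaks there cannot be given to a single gene. Besides the cases named below, these are Rad51c (Tex14, 111 bp away), Rad54l (Pomgnt1, 150 bp) and Chek2 (Hscb, 202 bp). Others are Mre11a (Ankrd49, 202 bp), Fancf (Gas2, 252 bp) and Wrn (Purg, 798 bp).

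The 4 genes of the BRCA and PALB2 group all had start peaks in KO talazoparib, KO DMSO and WT talazoparib, and 2 of them in WT DMSO, where 41.4%, 51.3%, 32.6% and 42.4% of all genes had one. Brca1, which encodes a ubiquitin ligase subunit that promotes end resection and PALB2 recruitment, had a start peak of 40.2 normalized tags (95% interval 35.5 to 45.3) in KO talazoparib, 40.1 (35.5 to 45.1) in KO DMSO, 13.5 (11.1 to 16.2) in WT talazoparib and 24.9 (21.7 to 28.4) in WT DMSO. The Brca1 peak (chr11:101551834-101553444 in KO talazoparib) was thus stronger in the KO lists, and its counting intervals did not overlap those in the WT lists. It lay across the 194 bp between Brca1 and Nbr1, which is read in the opposite direction, so the breaks cannot be given to one gene. For Bard1, which encodes the partner of BRCA1 in the ligase, the tags were 42.8 in KO talazoparib, 30.9 in KO DMSO, 17.7 in WT talazoparib and 26.3 in WT DMSO. Per kb, Bard1 had 33.4 and 23.8 tags in the 2 KO lists and 12.8 and 14 in the 2 WT lists. Brca2, whose product acts on resected single-stranded DNA, had 7.08 tags in KO talazoparib, 14.3 in KO DMSO and 9.60 in WT talazoparib, with none listed in WT DMSO. Per kb Brca2 had 14.2, 15.4 and 19.2 tags, with overlapping intervals. Palb2, the bridge between BRCA1 and BRCA2, showed the same presence pattern as Brca2, with 22.3, 12 and 6.08 tags. Per kb Palb2 had 24.6, 24.0 and 12.2 tags. Its start lies 56 bp from that of Dctn5 on the other strand.

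Among the factors of strand exchange, annealing and remodelling, Xrcc3 stood highest. XRCC3 works with RAD51C on recombination intermediates, and the start peak of its gene (chr12:111813411-111814558 in KO talazoparib) held 60.7 tags (54.9 to 66.9), against 48.0 (43.0 to 53.5) in KO DMSO, 31.5 (27.8 to 35.5) in WT talazoparib and 31.4 (27.8 to 35.4) in WT DMSO. Per kb this was 52.9, 37.5, 30.4 and 31.0 tags, so the KO talazoparib list was highest, and the intervals of the WT lists overlapped. The gene shares its promoter region with Zfyve21, 297 bp away. Rad51b, which acts in strand exchange, had a peak centred 1.05 kb upstream in KO talazoparib, toward the start of Zfyve26, with 12.8 tags, and it overlapped a WT DMSO peak of 11 tags centred 1.27 kb upstream. KO DMSO had 16.3 tags in a wider peak over the start, and WT DMSO a separate one of 3.33 tags just inside the gene. WT talazoparib had none there. Rad51c, the partner of XRCC3, had 27.2 and 21.5 tags in KO talazoparib and KO DMSO and 11.5 in WT DMSO, with no peak in WT talazoparib. Rad54l, which encodes a DNA translocase that remodels recombination intermediates, had 17.2, 6.87 and 6.49 tags in the same lists. The Rad54l peaks were 1163, 500 and 500 bp long, and per kb they held 14.8, 13.7 and 13.0 tags, with overlapping intervals.

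Rad52, an annealing factor, was the only member with a peak in both DMSO lists and neither talazoparib list, at 11 tags (8.67 to 13.8) in KO DMSO and 4.60 (3.29 to 6.26) in WT DMSO. No member showed the opposite pattern, and the share of all genes with either pattern was not computed. Rad51d, the partner of XRCC2, had a start peak only in KO talazoparib, at 8.96 tags (6.83 to 11.5). Inside the gene, the other lists had peaks at 5.55 kb in KO DMSO with 4.41 tags, at 7.09 kb in WT talazoparib with 2.86 tags and at 1.98 kb in WT DMSO with 3.05 tags, and none of them overlapped. A further WT DMSO peak of 8.10 tags lay downstream of Rad51d, at the start of Rffl. Xrcc2 had 21.3 tags in KO DMSO and 14.4 in WT talazoparib at its start. In KO talazoparib its peak was a separate one of 4.29 tags centred 1.08 kb into the gene.

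Of the end-resection genes, 3 encode the MRN complex. Mre11a encodes its nuclease, and the start peak held 18.7 tags in KO talazoparib, 15.2 in KO DMSO, 6.20 in WT talazoparib and 9.25 in WT DMSO. Nbn, the subunit that recruits ATM, had 10.7 (8.36 to 13.5) tags in KO talazoparib, 16.1 (13.2 to 19.4) in KO DMSO, 9.72 (7.72 to 12.1) in WT talazoparib and 9.65 (7.70 to 11.9) in WT DMSO. Its peak was 753 and 1200 bp long in KO talazoparib and KO DMSO and 500 bp in each WT list, so the order turned per kb, with 14.2 (11.1 to 17.9) and 13.4 (11 to 16.2) in KO talazoparib and KO DMSO, against 19.4 (15.4 to 24.1) and 19.3 (15.4 to 23.9) in WT talazoparib and WT DMSO. The per-kb intervals overlap between genotypes. Rad50, the ATPase of the complex, had no peak in KO talazoparib, against 14.3 tags in KO DMSO, 8.17 in WT talazoparib and 9.60 in WT DMSO. Exo1, a long-range resection exonuclease, had the same pattern, with 13.1, 7.70 and 11.8 tags. Dna2, a nuclease and helicase of long-range resection, had 11.4, 20.2, 12.7 and 11.6 tags at its start in the 4 lists. Its peak was 500 bp long in KO talazoparib and 1147, 1045 and 1006 bp in the others. Per kb Dna2 had 22.8, 17.6, 12.2 and 11.5 tags, so KO talazoparib was lowest by tags and highest per kb. Rbbp8 encodes CtIP, which starts resection with MRN, and was the only member without a start peak in any list.

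In KO talazoparib, among the members only Xrcc3 had a denser start peak than Atm, which encodes an apical kinase. In each of the other lists more members had a denser one than Atm. The Atm start peak (chr9:53536283-53537420 in KO talazoparib) held 41.7 tags (36.9 to 46.9) in KO talazoparib, 39.6 (35 to 44.6) in KO DMSO, 21.7 (18.7 to 25.1) in WT talazoparib and 20.3 (17.4 to 23.5) in WT DMSO. Per kb the values were 36.7, 23.7, 15.0 and 13.1, and the KO talazoparib interval, 32.5 to 41.3, lay above the others. Input tags at this peak were 24, 9, 6 and 12, so the count of input was highest where the IP count was. The authors' fold over input was 4.92, 10.94, 8.87 and 6.44, so by that measure KO talazoparib was the lowest list. The part of input in the difference was not tested. Atm and Npat start 307 bp apart on opposite strands. Atr, the kinase activated by single-stranded DNA, had 21.5 tags in KO talazoparib, 16.8 in KO DMSO and 12.5 in WT DMSO at its start, and none in WT talazoparib. Chek1, the target of ATR, was without a peak in KO talazoparib and had 20.8, 5.85 and 16.4 tags in KO DMSO, WT talazoparib and WT DMSO. Chek2, the target of ATM, was without one in WT talazoparib and had 28.4, 25.2 and 10.8 tags in KO talazoparib, KO DMSO and WT DMSO.

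All 7 genes of the Fanconi core complex and its anchor had start peaks in both KO lists, and 2 had one in WT talazoparib and 6 in WT DMSO. Over all protein-coding genes 41.4%, 51.3%, 32.6% and 42.4% had one in these lists, so the 2 of 7 in WT talazoparib are near the share of all genes. Fance, the bridge from the core to FANCD2, had 20.9 (17.6 to 24.7) tags in KO talazoparib, 19.5 (16.3 to 23.1) in KO DMSO, 7.10 (5.41 to 9.15) in WT talazoparib and 15.5 (13.0 to 18.3) in WT DMSO. Fancm, the translocase that anchors the core complex on DNA, had a start peak of 919 bp with 19.9 tags in KO talazoparib. In KO DMSO, WT talazoparib and WT DMSO that peak was fused with the one at the start of Fkbp3 into 3526, 2792 and 2989 bp, with 60.7, 44.0 and 32.9 tags, whereas in KO talazoparib the Fkbp3 side was a separate peak of 33.6 tags. Fanca, Fancf and Fancg, core subunits, lacked a start peak only in WT talazoparib. Their tags were 16.6, 17 and 12.2 for Fanca, 16.7, 18.4 and 6.32 for Fancf, and 16.4, 11.4 and 11.1 for Fancg in KO talazoparib, KO DMSO and WT DMSO. Fancl, the ubiquitin ligase subunit, was the only member with a peak in both KO lists and neither WT list, at 19.4 tags (16.2 to 23.1) in KO talazoparib and 25 (21.4 to 29.0) in KO DMSO. The share of all genes with that pattern was not computed. Those Fancl peaks were centred 1.40 and 1.20 kb into the gene.

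FANCD2 and FANCI form the clamp that the core complex ubiquitinates. Fancd2 was the only member with a start peak in both WT lists and neither KO list, at 4.18 tags (2.91 to 5.81) in WT talazoparib and 3.51 (2.38 to 5.00) in WT DMSO, on 1 and 3 input tags. Both are among the weakest start peaks of these genes, and the promoter is shared with Emc3, whose start is 30 bp away. The share of all genes with start peaks in the WT lists alone was not computed. In the KO lists Fancd2 had an intronic peak 12.4 kb inside in talazoparib, with 6.40 tags, that overlapped one of 5.64 tags in DMSO. Near the start of Fancd2os, downstream of the gene, KO DMSO had a peak of 9.47 tags and WT DMSO one of 5.40. Brip1, a helicase that binds BRCA1, had 17.2, 12, 5.97 and 11.7 tags at its start in the 4 lists.

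The genes that resolve joint molecules had start peaks in 3, 4, 2 and 4 of 4 cases, beside the 41.4%, 51.3%, 32.6% and 42.4% of all genes. Slx4, the scaffold of structure-specific nucleases, had 34.6 tags (30.3 to 39.4) in KO talazoparib, 29.5 (25.6 to 33.8) in KO DMSO, 11.5 (9.32 to 14) in WT talazoparib and 16.9 (14.3 to 19.9) in WT DMSO. Blm, the helicase that dissolves double Holliday junctions, had none in KO talazoparib, against 24.3 tags in KO DMSO, 19.3 in WT talazoparib and 7.93 in WT DMSO. Per kb the Blm start peaks of these lists held 18.6, 15.7 and 15.9 tags. A second Blm peak nearly 5 kb upstream held 11.5 tags in KO talazoparib, 10.5 in KO DMSO and 6.62 in WT talazoparib. Wrn, another RecQ helicase, lacked a peak in WT talazoparib and had 29.3, 23.9 and 17.4 tags in KO talazoparib, KO DMSO and WT DMSO. Per kb Wrn had 19.9, 27.1 and 19.2 tags in these lists, so KO DMSO was highest. Mus81, a nuclease that cuts branched DNA, had the largest peak of any member, 109.7 tags (101.9 to 118.0) over 3800 bp in KO talazoparib, and this peak also covered the start of Cfl1. KO DMSO had 2 peaks in that stretch, of 35.6 and 43.8 tags, and WT DMSO had 2 of 16.6 and 23.6. WT talazoparib had only the Cfl1 one, of 29.9 tags.

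**Figure D3:**
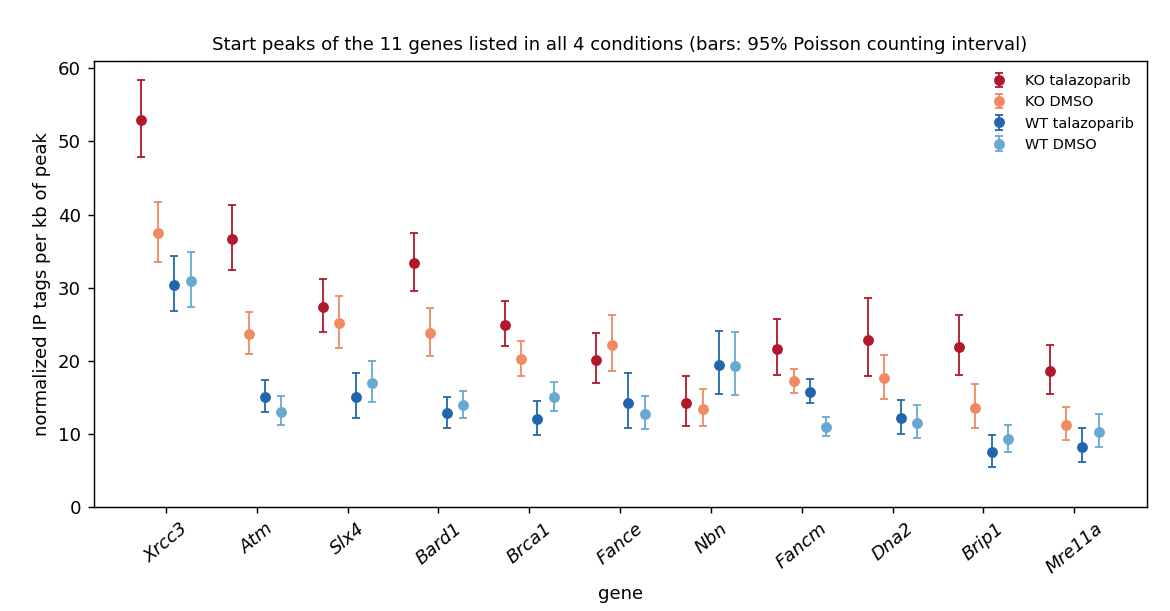
Density of the start peak, in normalized IP tags per kb (y axis), for the 11 genes listed in all 4 conditions (x axis), with bars for the 95% Poisson counting interval. The red and orange KO points lie above the blue WT points in 10 genes, and Nbn is the exception, at 14.2 and 13.4 tags per kb in KO talazoparib and KO DMSO against 19.4 and 19.3 in WT talazoparib and WT DMSO.

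Densities were set side by side where the start peaks of 2 lists overlapped. KO talazoparib was denser than WT talazoparib at 11 of 13 members, against 91.8% of genes, with a median ratio of 1.88 over members and 1.53 over all genes. KO DMSO was denser than WT DMSO at 26 of 28 members, against 88.4% of genes, with median ratios of 1.39 and 1.29. Both counts were near those over all genes, so the higher KO density was general to start peaks. Talazoparib over DMSO gave a ratio above 1 at 21 of 25 members in KO cells, against 78.7% of genes, with medians of 1.13 over members and 1.19 over genes. In WT cells the ratio was above 1 at 6 of 17 members, against 50.3% of genes, with medians of 0.92 and 1.00. Comparisons that share a list are not independent of one another. The input density at members' start peaks also differed, with medians of 1.03, 0.727, 0.634 and 0.618 times the genome mean in KO talazoparib, KO DMSO, WT talazoparib and WT DMSO, beside IP densities of 5.26, 4.16, 3.31 and 3.19 times. The part of input in these differences was not tested.

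The shorter lists had start peaks at fewer members. With only the best-scoring peaks of each list kept, as many as the shortest list holds, start peaks were left at 26 members in KO talazoparib, 25 in KO DMSO, 20 in WT talazoparib and 24 in WT DMSO. In the gene body plus 5 kb, peaks were then left at 30, 30, 27 and 27 members in the same order. The full lists had 31, 35, 27 and 31. The share over all genes at equal length was not computed, and the part of list length in these counts was not tested. Of 32 members with a start peak in KO DMSO, 26 also had one in KO talazoparib, against 71.7% of genes. Of 29 with one in WT DMSO, 17 also had one in WT talazoparib, against 62.3% of genes. The start peak was missing from WT talazoparib alone at 11 members (Atr, Chek2, Fanca, Fancc, Fancf, Fancg, Mus81, Rad51b, Rad51c, Rad54l and Wrn), against 8.22% of genes. It was missing from KO talazoparib alone at 5 (Blm, Chek1, Exo1, Fanci and Rad50), against 3.49%, and from WT DMSO alone at 3 (Brca2, Palb2 and Xrcc2), against 3.24%. A peak missing from a list need not mean fewer breaks.

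The promoters of the 6 members with the highest mean tag count among those with a start peak in all 4 lists are shown because the break signal of each list falls on them. The mean for Fancm includes tags at the start of Fkbp3, since the peaks of these genes were fused in KO DMSO, WT talazoparib and WT DMSO. Each runs 5′ to 3′ on the gene's strand over the 300 bases around the GENCODE M21 start and was read from the GRCm38.p6 genome, which is the assembly of mm10. Capitals mark matches to the short motifs discussed next, on either strand.
Xrcc3 promoter, chr12:111813824-111814123, minus strand: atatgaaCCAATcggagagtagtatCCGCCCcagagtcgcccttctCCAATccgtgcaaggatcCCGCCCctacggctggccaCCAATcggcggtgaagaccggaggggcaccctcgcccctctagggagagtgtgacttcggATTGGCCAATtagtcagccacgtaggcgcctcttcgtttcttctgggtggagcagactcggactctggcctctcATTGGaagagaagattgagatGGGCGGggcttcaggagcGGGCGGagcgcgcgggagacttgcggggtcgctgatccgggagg
Fancm promoter, chr12:65075353-65075652, plus strand: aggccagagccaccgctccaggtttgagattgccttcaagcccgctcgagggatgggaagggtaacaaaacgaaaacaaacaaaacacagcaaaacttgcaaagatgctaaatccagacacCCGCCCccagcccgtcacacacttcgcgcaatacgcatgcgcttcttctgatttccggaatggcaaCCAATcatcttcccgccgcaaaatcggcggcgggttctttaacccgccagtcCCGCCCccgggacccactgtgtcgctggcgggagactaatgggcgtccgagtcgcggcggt
Atm promoter, chr9:53536691-53536990, minus strand: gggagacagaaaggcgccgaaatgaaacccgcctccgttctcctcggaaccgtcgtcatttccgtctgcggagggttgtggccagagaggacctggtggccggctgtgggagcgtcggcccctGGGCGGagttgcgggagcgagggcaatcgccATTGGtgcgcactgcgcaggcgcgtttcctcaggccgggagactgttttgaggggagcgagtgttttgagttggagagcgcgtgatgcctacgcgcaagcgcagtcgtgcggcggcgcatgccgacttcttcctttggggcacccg
Brca1 promoter, chr11:101551906-101552205, minus strand: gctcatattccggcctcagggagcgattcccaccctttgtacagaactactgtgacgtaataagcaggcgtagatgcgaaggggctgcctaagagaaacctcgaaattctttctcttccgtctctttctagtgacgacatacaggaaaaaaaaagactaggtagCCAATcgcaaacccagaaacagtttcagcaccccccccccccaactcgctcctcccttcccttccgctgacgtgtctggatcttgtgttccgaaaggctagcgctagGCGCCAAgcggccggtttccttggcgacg
Bard1 promoter, chr1:71103097-71103396, minus strand: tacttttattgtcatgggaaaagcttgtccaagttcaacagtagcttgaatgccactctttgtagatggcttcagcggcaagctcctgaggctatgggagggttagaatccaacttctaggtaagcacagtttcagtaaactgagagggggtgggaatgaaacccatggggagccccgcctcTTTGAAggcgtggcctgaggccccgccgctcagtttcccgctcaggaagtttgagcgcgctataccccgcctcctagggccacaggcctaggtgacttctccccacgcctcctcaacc
Slx4 promoter, chr16:4003721-4004020, minus strand: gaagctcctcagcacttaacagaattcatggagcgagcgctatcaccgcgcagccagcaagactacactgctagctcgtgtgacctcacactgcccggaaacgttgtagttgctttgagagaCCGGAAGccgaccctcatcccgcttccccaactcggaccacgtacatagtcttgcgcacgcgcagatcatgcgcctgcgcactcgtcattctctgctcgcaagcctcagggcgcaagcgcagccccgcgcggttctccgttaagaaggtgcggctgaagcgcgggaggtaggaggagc
For Xrcc3, Fancm, Atm and Bard1 all 300 bases lie inside the stretch covered by the start peak of every list, while 182 bases do for Brca1 and 234 for Slx4. The Bard1 promoter has 10 CpG sites and a CpG ratio of 0.441, below the CpG-rich limit, whereas the Atm promoter has 33 and a ratio of 1.06. In the KO lists the start peaks of Bard1 and Atm had 23.7 to 36.7 tags per kb. The medians over all protein-coding genes were 18.8 in KO talazoparib and 14.6 in KO DMSO. In the WT lists the 2 genes had 12.8 to 15.0, against medians of 12.2 in WT talazoparib and 11.7 in WT DMSO. Both genes were picked for high tag counts, so values above the medians follow in part from that choice. The part of CpG content was not tested.

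The motifs searched on both strands of the same 300 bases were CCAAT (bound by NF-Y), CCGGAAG (ETS factors), GGGCGG (Sp1 and its relatives), TTTGAA (the cell cycle element of the DREAM and MuvB complexes), TTGGCGC (E2F), and the longer palindromes known from NRF1 and from ZBTB33-type promoters. CCGGAAG was in 11 members, all among the 24 CpG-rich ones (Atr, Blm, Brip1, Exo1, Fancd2, Fance, Fancg, Palb2, Rad51c, Rad51d and Slx4), and in 19.8% of all CpG-rich and 10.8% of all protein-coding promoters. GGGCGG was in 17 of the 24, against 75.8% of CpG-rich promoters, and CCAAT in 12, against 37.5%. The Xrcc3 promoter holds 10 matches to CCAAT or GGGCGG, among them a pair of CCAAT matches on opposite strands that abut in ATTGGCCAAT. E2F letters were in Brca1, Fancf and Rad51c (2.99% of all protein-coding promoters), and TTTGAA in Bard1 and Nbn (16.4%). The NRF1 palindrome was in Dna2 alone (1.22%) and the other palindrome in Mre11a alone (0.624%). A match is a description of letters and does not show binding.

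Away from the starts, few sites recurred. The members' windows held 56 peaks in KO talazoparib, 73 in KO DMSO, 37 in WT talazoparib and 62 in WT DMSO. Merged where they overlapped, these made 118 regions, of which 17 were in all 4 lists and 67 in 1 list only. Of the 17, 13 lay at a member's own start: those of the 11 genes above and those of Fanci and Mus81, whose neighbouring peaks were joined by the merging. A further 45 regions lay in gene bodies, away from the members' annotated transcript starts and from the gene starts of other protein-coding genes. Of these, 38 were in 1 list and none in all 4. Such counts of regions were not made over all protein-coding genes, so whether they are particular to these genes is not known. Peaks other than start peaks had median tag counts of 4.93, 4.92, 3.76 and 4.31 in the 4 lists, beside 19.4, 19.9, 9.66 and 11.6 for start peaks. Start peaks were longer, and per kb the gap was smaller. The medians per kb were 8.9, 8.39, 6.32 and 7.12, beside 19.85, 15.7, 12.5 and 12.1 for start peaks.

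**Figure D4:**
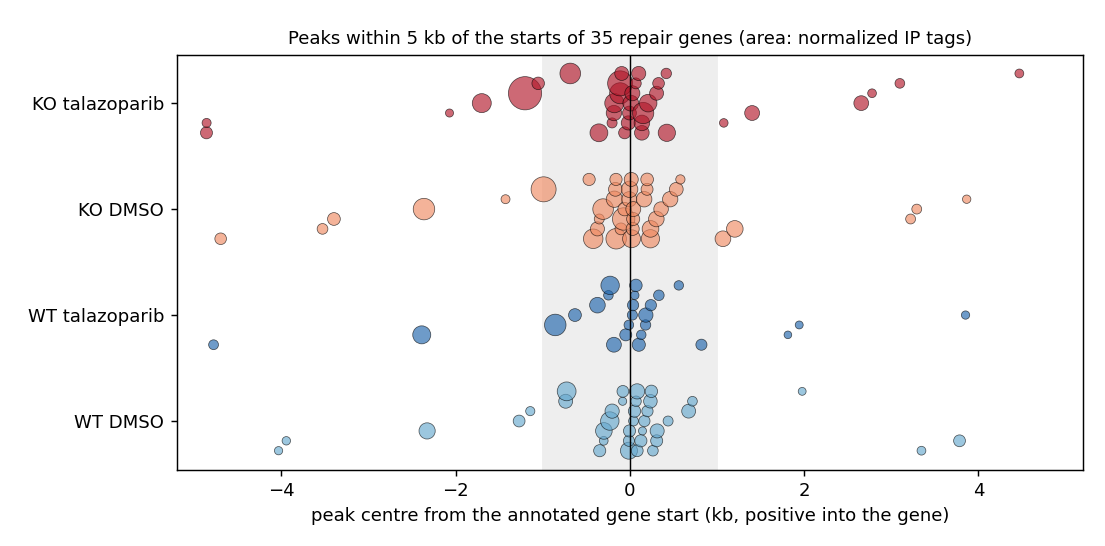
Centres of peaks within 5 kb of the starts of the 35 genes (x axis, kb, positive into the gene), with 1 row per peak list and symbol area growing with normalized IP tags. Symbols crowd the shaded 1 kb on either side of the start in each row, and the large symbol upstream in KO talazoparib is the 109.7-tag peak at Mus81 and Cfl1.

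The remaining 4 of the 17 recurrent regions lay at other starts, and that at Xrn1 was weak in the WT lists. In Fancc, a core complex subunit, the annotated gene start had weak peaks of 7.90 tags in KO talazoparib, 5.49 in KO DMSO and 8.33 in WT DMSO, and none in WT talazoparib. About 66 kb inside the gene, at the start of another annotated Fancc transcript (chr13:63430433-63432314 in KO talazoparib), the peak held 61.2 tags (55.4 to 67.4) in KO talazoparib, 45.9 in KO DMSO, 39.1 in WT talazoparib and 31.7 in WT DMSO. The internal start was thus the stronger one in each list. Rbbp8 had the same arrangement, with no peak at the annotated gene start and 18.7, 27.5, 13.4 and 17 tags at another transcript start about 24.3 kb inside. Downstream of Atr, the peak at the start of Xrn1 held 13.9, 13.3, 4.77 and 8.39 tags, and downstream of Fancg the one at the start of Vcp held 46.2, 59.9, 25.1 and 36.6. These last 2 regions count for Atr and Fancg only through the 5 kb flank.

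Fancc also had the most peaks, 3 in KO talazoparib, 10 in KO DMSO, 4 in WT talazoparib and 6 in WT DMSO, over its 212.2 kb. Its other peaks held 2.68 to 13.4 tags, and the strongest of them was an intronic one 133.1 kb inside in KO DMSO. Rad51b, the longest member at 517.4 kb, had 3, 5, 1 and 4 peaks, and those deep in its introns held 2.92 to 4.19 tags on 0.5 to 2.5 input tags. Only 1 intronic Rad51b site, near 309 kb, was in 2 lists, KO DMSO with 3.98 tags and WT DMSO with 2.99. Fanci had 1, 6, 2 and 5 peaks within 20 kb of its start. One of them, about 6.5 kb inside and beside another transcript start, held 21.9 tags in KO DMSO, 4.71 in WT talazoparib and 5.52 in WT DMSO. In KO talazoparib the single Fanci peak lay 2.66 kb inside and held 19.1 tags. Fance had 5, 3, 3 and 3 peaks and Fancm 5, 4, 1 and 3, and beyond the starts of these genes, with the Fkbp3 peak aside, the peaks held 2.93 to 14.9 tags. The 14.9-tag one, in WT talazoparib, was at the start of Rpl10a.

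**Figure D5:**
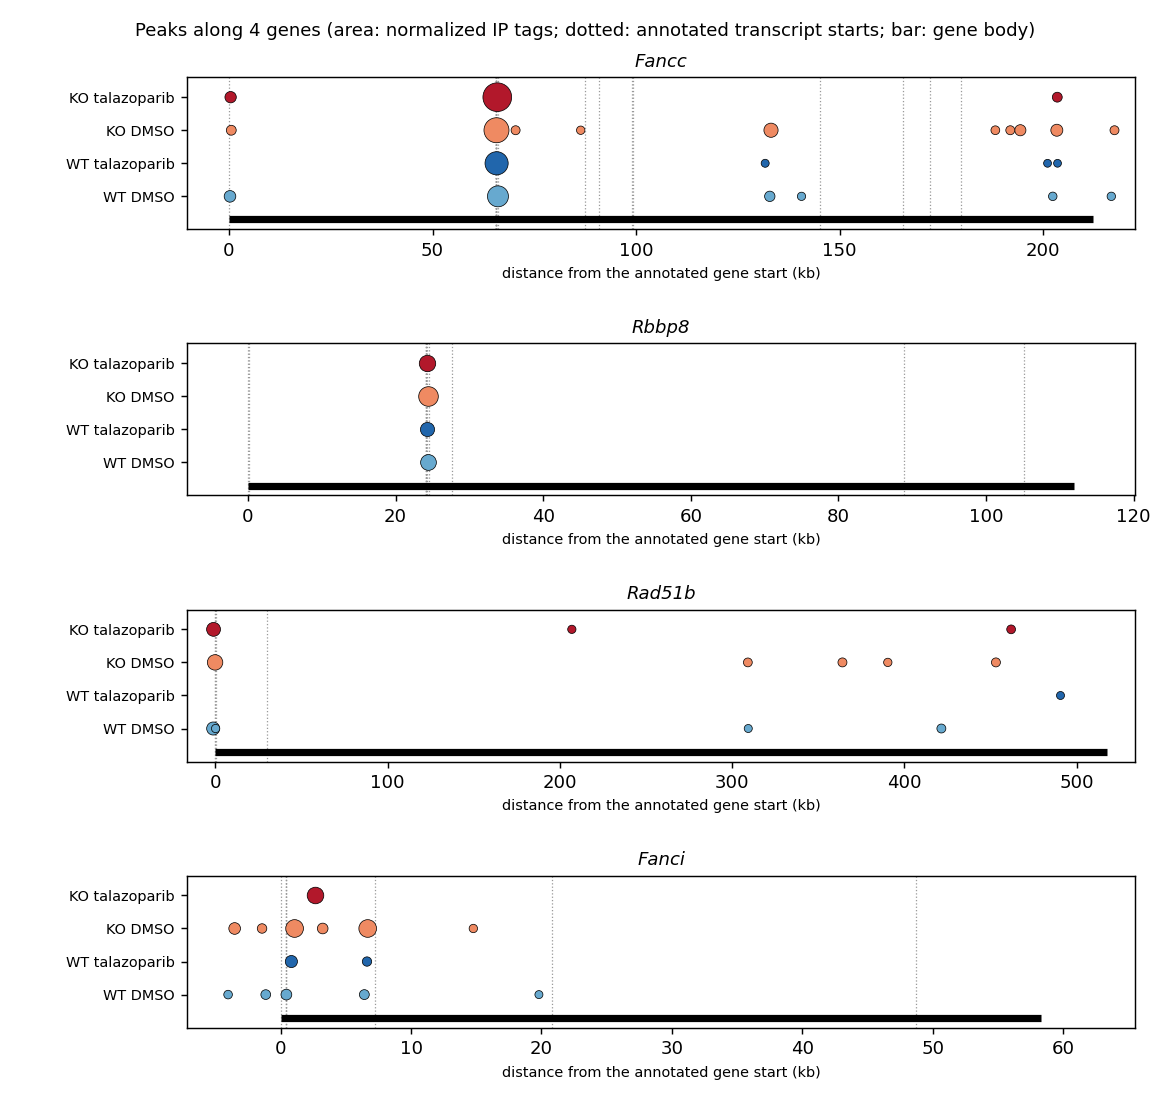
Peaks along Fancc, Rbbp8, Rad51b and Fanci by distance from the annotated gene start (x axis, kb), with 1 row per peak list, symbol area growing with normalized IP tags, dotted lines at annotated transcript starts and a black bar for the gene body. The largest Fancc symbols stand near 66 kb and the only Rbbp8 symbols near 24.3 kb, at internal transcript starts, while Rad51b has small symbols at positions that differ between lists.

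Other repair genes were read in the same window. Of 48 further recombination and Fanconi genes, 43 had a peak in the gene body plus 5 kb in KO talazoparib, 47 in KO DMSO, 34 in WT talazoparib and 42 in WT DMSO, and 34 had one in all 4 lists. Most peaks were at Mdc1, the adaptor that binds phosphorylated H2AX, with 6, 3, 3 and 3, and then at Babam1, a scaffold subunit of the BRCA1-A complex, with 2, 3, 2 and 4. The next place was shared by 4 genes of 10 peaks each, Babam2, Ercc1, Rad54b and Top3a, of which the last 2 are named after their values were seen. Of 12 end-joining genes, 10, 11, 9 and 10 had a peak, with most at Aplf, a histone chaperone that binds poly(ADP-ribose) (3, 2, 4 and 3 peaks), and then Nhej1, Prkdc and Xrcc5. Of 7 mismatch repair genes, 7, 7, 5 and 6 had one. Over all protein-coding genes the shares were 58.9%, 66.8%, 48.8% and 60.9%, and the WT talazoparib list had the lowest count in each of these gene lists.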

How the data were processed

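Single-strand breaks were measured by SSB-seq in 16 libraries, 3 IP and 1 input for each of 4 conditions. The submitters' processing notes name R 3.6, HOMER 4.11, Picard 2.9.2 and Bowtie2 2.3.4.2 with the mm10 build, without roles or settings. The authors deposited 1 peak table per condition with HOMER's column names, so IP libraries were pooled per the file headers. The deposited normalized tag count is a signal, in IP tags per 10000000, and the input tags are a signal in steps of 0.5. The deposited fold divides IP tags, scaled to the input total, by input tags, a ratio of at least 4 in every list. The deposited score ranked peaks within a list for the comparison at equal list length, and the deposited p-value enters no result.

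Peaks were matched to GENCODE M21 genes by at least 1 bp, with the gene start at the annotated 5′ end. Starts are printed as deposited, and whether they count from 0 or 1 is not stated. IP totals were recovered from the steps of normalized counts under 6, which fell on half-tag steps in 100% of cases. They gave exact Poisson 95% intervals, which cover counting error only. Density ratios needed overlapping start peaks, a choice made after seeing the data. The members and gene lists were chosen with earlier results of these data known. Values are given in full for members with a start peak, or any peak, in every list, and for the 5 with most peaks. They are also in full for members listed in both lists of 1 genotype or treatment and neither of the other. The other members are given more briefly. The promoter sequences follow the highest mean tag count. Overlap counting was tested on simulated data. Work used Python 3.11.15, pandas 2.3.3, numpy 2.4.6, scipy 1.17.1 and matplotlib 3.10.9. No test was run, since each condition has 1 list. Some genes of the wider repair lists are not reported here by name.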

Additional observations from a re-analysis of the deposited data

How the results depend on the processing

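Of 88 recomputed values, 61 stayed within 1.5 times the main count, or within the 95% interval of a percent, and 27 did not. Of all 88, the 8 on the background at a fold of at least 6 were added after seeing the data. Requiring the authors' fold over input to be at least 6 left 15, 15 and 14 members with a peak in the gene body plus 5 kb in KO talazoparib, WT talazoparib and WT DMSO, 6 with one in all 4 lists and 6 in none. In KO DMSO the count was 25. All protein-coding genes then had one in 25.1%, 50.1%, 31.3% and 27.7% of cases in KO talazoparib, KO DMSO, WT talazoparib and WT DMSO. Start peaks were left at 8, 16, 4 and 4 members, against 12.6%, 28.4%, 14.5% and 13% of genes. Counting only the 1 kb around the start put 11 members in all 4 lists and 1 in none. With all annotated genes as background the shares were 34.2%, 40.4%, 27.3% and 36.1%, and with protein-coding genes of the members' length range they were 61.1%, 69.1%, 50.7% and 63.2%. The tables hold no values per library, so leaving out a replicate could not be run. No paired analysis was possible because the replicate numbers are carried by no column. Depth limits absence: a peak missing from a list may lie just under its threshold.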
